A study of Drosophila melanogaster with 12 samples.

Results

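The late step of paraquat exposure in control heads was examined by setting heads frozen after 12 h on paraquat food against heads frozen after 6 h. These are 4 of the 12 RNA-seq libraries of the study, 2 at 12 h and 2 at 6 h. The control line carries a precise excision of a transposon. It shares its background with the *G9a* DD1 mutants, in which excision of a P-element removed the function of G9a, an H3K9 methyltransferase. All flies were males of 5 to 9 days, kept in a cycle of 12 h light and 12 h dark, and the 12 h and 6 h groups received food with 50 mM paraquat, while the 0 h groups were untreated. Each library was made from a pool of 200 heads that were shaken off frozen flies and sieved, so a library averages many flies. The p-values measure the spread between 2 pools per group, which may be partly technical. The clock hour of freezing is not given in the sources used here and the 0 h groups are the only untreated flies analysed here, so time on paraquat and time of day cannot be told apart.

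Paraquat is a redox cycler that takes electrons from the cell's reducing systems and passes them to oxygen, which yields superoxide. Flies answer with glutathione S-transferases, cytochrome P450 enzymes and other detoxification genes, and with stress signalling. The fly head is also a main site of daily rhythms of transcription. There the activators CLOCK and CYCLE drive *period* (*per*) and *timeless* (*tim*), whose proteins return to the nucleus and inhibit the activators, and an interlocked loop of *vri* and *Pdp1* sets the level of *Clk* itself.

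Reads assigned to genes numbered 21872478 and 22424608 in the 12 h libraries and 19275805 and 20582975 in the 6 h libraries. Of 15682 genes in the table, 10530 reached an average of 10 normalized counts across the 12 libraries and were tested. Of the genes that differed more than 8-fold between duplicates, 9 of 60 at 12 h and 2 of 51 at 6 h were protein coding. The 7SL RNA genes summed to 224.9 and 18780 normalized counts in the 12 h libraries and to 7222 and 451.6 in the 6 h libraries, so 1 library of each hour was rich in these reads. Over all tested genes the 12 h duplicates lay 58.8 log2 units apart (Euclidean distance) and the 6 h duplicates 42.2, with 43.2 for the nearest pair across the hours. Over the 9714 protein-coding genes the duplicates lay 31.7 apart at 12 h and 28.4 at 6 h, and each pair across the hours lay further apart, at 36.1 to 44.0. *G9a* itself had 2779 and 2780 normalized counts at 12 h and 2764 and 2620 at 6 h in controls. It had 3519 to 3700 in the 12 h and 6 h mutant libraries, where a count over the whole gene does not resolve the deleted stretch and is no check of the labels. Neuron markers summed to 157900 and 151970 at 12 h and 151520 and 150720 at 6 h. Markers of the accessory gland and of gut proteases were near 0, with summed counts of 4.79 and 8.15 at 12 h and 10.6 and 3.72 at 6 h for the 6 accessory gland genes.

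Genes were called when they changed at least 1.5-fold with a limma adjusted p of at most 0.05. By this rule 361 genes changed, 3.43% of those tested, with 157 higher at 12 h (1.49%) and 204 lower (1.94%). At an unadjusted p below 0.05 there were 2416. The median log2 fold change of all genes was 0.00 after the authors' scaling by DESeq size factors, which holds such a median near 0. It therefore cannot show whether RNA levels shifted as a whole. The larger changes were mostly decreases, since 97 genes were at least 2-fold lower and 45 at least 2-fold higher, and 23 were at least 4-fold lower against 2 that were at least 4-fold higher. These 2 were *dy* and *tim*, a cuticle gene and a clock gene. In all 361 the 2 libraries of 12 h lay on one side of the 2 libraries of 6 h, which the rule for calling nearly forces. With that separation no direction can turn when 1 of the 4 libraries is left out, so a kept direction is no separate support. All 361 kept their direction when any 1 of the 4 libraries was left out, and 155 also kept their call each time, 76 of them higher and 79 lower. The count was 232 without the first 12 h library and 238 without the first 6 h library, and the genes called lower numbered 120, 130 and 117 without the first 12 h, the second 12 h and the first 6 h library in that order. With 1 library an hour it was 224 for the pair rich in 7SL reads and 189 for the pair poor in them, a check chosen after the data were seen.

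**Figure D1:**
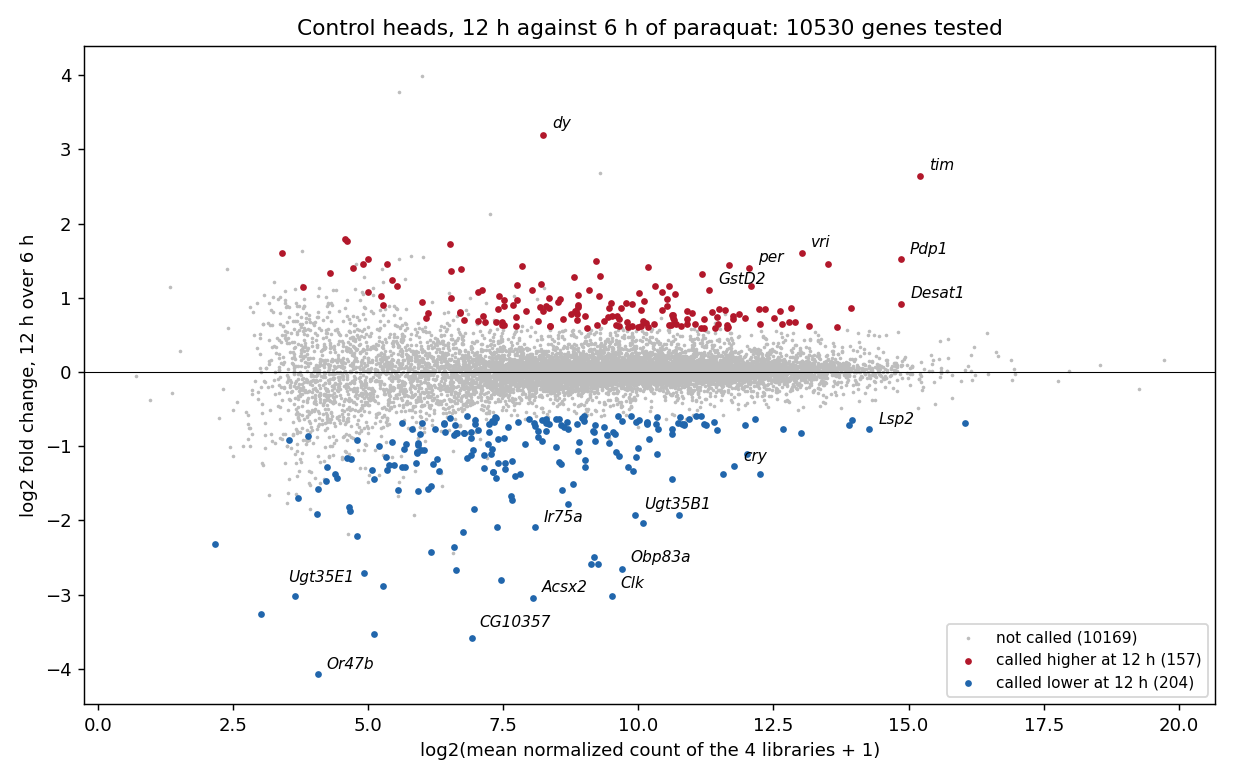
Change between the hours in control heads for the 10530 genes tested. The x axis is log2 of the mean normalized count of the 4 libraries plus 1, and the y axis is the log2 fold change, 12 h over 6 h. Each point is a gene, red where called higher at 12 h (157), blue where called lower (204) and grey where not called. The genes furthest below 0 include *Or47b* at -4.07 and *Clk* at -3.01, and *dy* at 3.20 and *tim* at 2.65 are furthest above 0 among the called genes.

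Most of the core clock changed. Of its 8 genes 5 were higher at 12 h and 2 were lower, with a median log2 fold change of 1.42, and these 7 calls held with each library left out in turn. *tim* had 63503 and 68140 normalized counts at 12 h and 10682 and 10327 at 6 h, 6.26-fold higher (log2 2.65 ± 0.07 SE, adjusted p = 1.93e-09). The duplicates differed by far less than the hours. Its partner *per* had 5983 and 6306 at 12 h and 2416 and 2232 at 6 h, 2.64-fold higher (log2 1.40 ± 0.06, adjusted p = 1.1e-07). *vri*, the repressor of *Clk*, was 3.05-fold higher, with 12420 and 12647 at 12 h and 4334 and 3893 at 6 h. *Pdp1*, the activator of *Clk* in the second loop, was 2.86-fold higher, with 43208 and 44538 against 15063 and 15612. *cwo*, a repressor that competes with CLOCK and CYCLE for E-boxes, was 2.72-fold higher, with 4765 and 4821 against 1814 and 1708. All 5 therefore rose by more than 2.5-fold with no overlap of the hours.

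*Clk*, which encodes the activator, went the other way. *Clk* had 154.3 and 165.3 normalized counts at 12 h and 1278 and 1313 at 6 h, an 8.07-fold fall (log2 -3.01 ± 0.11, adjusted p = 3.22e-08). *cry*, which encodes the blue-light receptor that resets the clock, had 2130 and 1957 at 12 h against 4710 and 5134 at 6 h, a 2.41-fold fall. *cyc*, the partner of CLOCK, is known not to cycle in the fly head, and it had 804.0 and 825.4 at 12 h and 879.2 and 861.1 at 6 h (log2 -0.09 ± 0.05, adjusted p = 0.341). The untreated heads are given beside them as levels. The mean of *vri* was 1090, 4114 and 12534 normalized counts at 0, 6 and 12 h and that of *tim* was 3822, 10504 and 65822, while *cwo* stood at 2021, 1761 and 4793 and *Pdp1* at 16794, 15338 and 43873. *Clk* had means of 1650, 1296 and 159.8, as the plot of the clock genes by hour shows. Without time-matched untreated flies, no part of this can be assigned to paraquat or to the hour. The 8 clock kinases and output genes of a second list had no call by limma, edgeR or DESeq2, with 3 at an unadjusted p below 0.05. At any fold 2 of the 8 were higher and 0 lower with a limma adjusted p of at most 0.05, against 5.58% higher over all tested genes. *Slob* had 23405 and 23305 at 12 h against 15873 and 15958 at 6 h (1.47-fold higher, adjusted p = 1.975e-05), just short of the 1.5-fold rule.

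**Figure D2:**
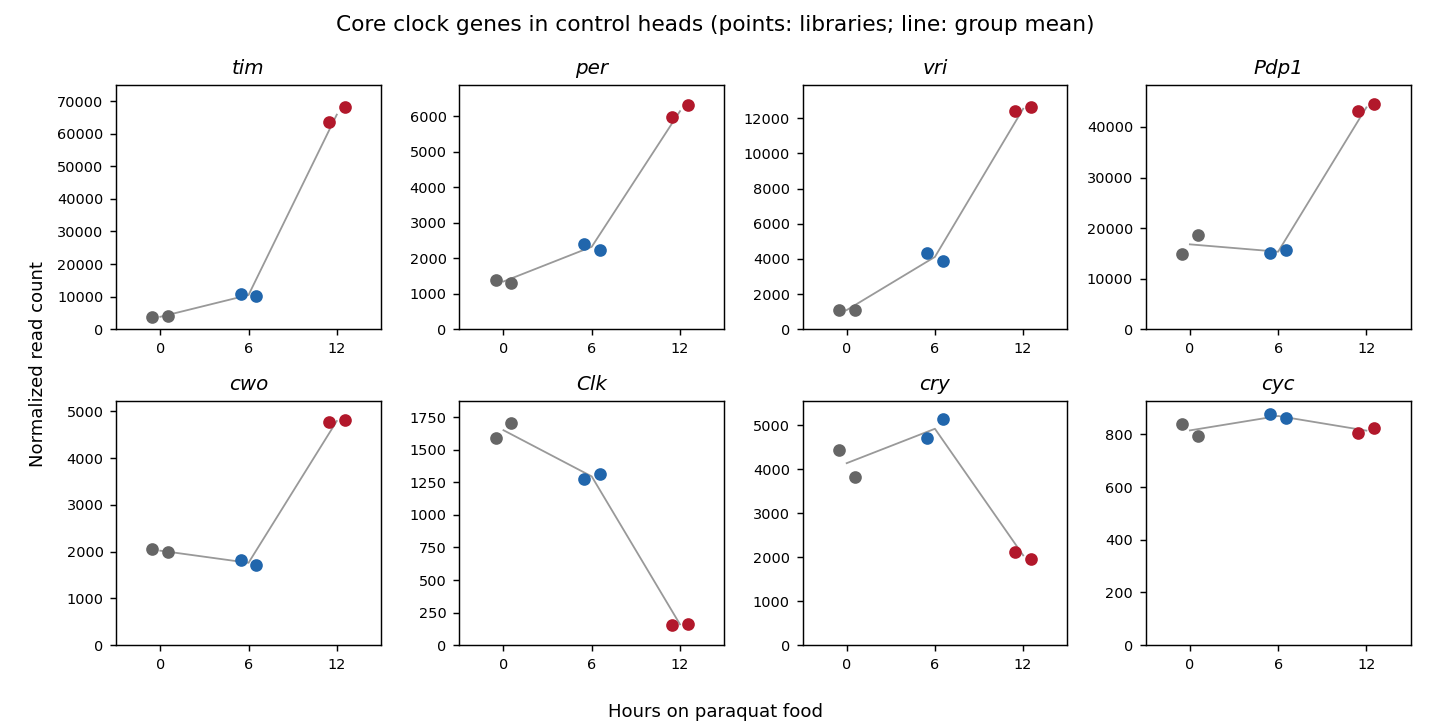
Normalized read counts of the 8 core clock genes in control heads by hours on paraquat food (0, 6 and 12). Points are libraries (2 a group), the line joins the group means, and each y axis starts at 0. *tim*, *per*, *vri*, *Pdp1* and *cwo* are highest at 12 h, *Clk* and *cry* are lowest there, and *cyc* stays between 792.5 and 879.2.

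Several further genes rose with close duplicates. *dy*, which encodes a zona pellucida domain protein of the cuticle, showed the largest rise of all called genes, with 548.0 and 536.7 at 12 h against 57.0 and 59.6 at 6 h (9.17-fold, log2 3.20 ± 0.16, adjusted p = 5.51e-07). *gol*, a membrane-bound ubiquitin ligase, had 16708 and 17212 against 5997 and 6428. *CG31710* was 2.82-fold higher, and *Cipc*, whose mammalian counterpart binds CLOCK, had 1988 and 2211 against 954.8 and 929.3. *Cipc* was chosen after its values were seen. Genes next to 3 of the 7 called clock genes were called in the same direction as the clock gene. *CG31954* beside *tim* was 3.39-fold higher, *dyw* on the opposite strand from *per* was 1.74-fold higher, and *CG32371* beside *Clk* had 0 and 1 reads at 12 h and 13 and 8 at 6 h (ratio 0.0438, 95% counting interval 0.00106 to 0.273). The library kit does not mark strand, so reads of *per* and *dyw* where they overlap cannot be told apart, and the call of *dyw* was lost without 3 of the 4 libraries in turn (highest adjusted p 0.252). Of all 361 called genes 101 share exon sequence with another annotated gene in a later build.

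Many of the largest decreases lay in genes of the antenna. Odorants cross the fluid of an olfactory hair bound to odorant-binding proteins, then meet a receptor of the *Or* or *Ir* family on the neuron, and enzymes of the hair clear them. Of 13 antennal marker genes tested 7 were lower at 12 h and 0 higher (median log2 fold change -1.06), of 30 *Obp* genes 7 were lower and 0 higher (median -0.14), and of 42 receptor genes 3 were lower and 0 higher (median -0.13). Over all tested genes 1.94% were called lower and 1.49% higher. The marker list holds 5 of the *Obp* genes called. Where none was called higher, limma had 1 antennal marker, 8 *Obp* genes and 1 receptor higher at an unadjusted p below 0.05, and neither edgeR nor DESeq2 called one higher. The 7 antennal calls held with each library left out in turn, while the *Obp* calls ranged from 5 to 7 and the receptor calls from 2 to 3, with 1 receptor higher without the second 6 h library. In heads sequenced in bulk, fewer cells of a type and less RNA per cell cannot be told apart.

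*Or47b*, a receptor for fly-derived pheromones on a class of trichoid neurons, had 2 and 0 reads at 12 h against 26 and 21 at 6 h, or 0.0392 times the 6 h level (95% counting interval 0.00461 to 0.150). *Obp83a*, one of the most abundant binding proteins of the antenna, had 186.6 and 264.3 normalized counts at 12 h against 1695 and 1160 at 6 h (6.29-fold lower, log2 -2.65 ± 0.33, adjusted p = 0.000511). Its neighbour *Obp83b* had 146.0 and 166.5 against 1159 and 766.8. In these 3 genes both 12 h libraries lay far below both 6 h libraries, and the first 6 h library was above the second. *Obp19a* had 33.5 and 52.4 at 12 h against 368.7 and 243.2 at 6 h. *a10* was lower by 5.63-fold, *Os-C* by 6.00-fold, *a5* by 4.46-fold and *lush*, which binds the pheromone cis-vaccenyl acetate, by 4.26-fold, with 62.2 and 62.9 normalized counts at 12 h against 301.0 and 241.9 at 6 h. *Jhedup*, an esterase of the antenna, was 2.09-fold lower, with 317.0 and 293.4 against 657.7 and 620.4. *Os-C* overlaps *Sfp84E* on the other strand, which was also called lower, and their reads cannot be told apart there.

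Other antennal genes were not called. *Orco*, the co-receptor of nearly all *Or* receptors, had 319.4 and 327.1 at 12 h and 363.4 and 333.8 at 6 h (log2 -0.11 ± 0.15, adjusted p = 0.73). *Obp28a* had 486.9 and 499.4 against 578.2 and 471.5, and *Ir25a*, a co-receptor of the *Ir* family, had 204.6 and 242.1 against 179.0 and 186.1. Beside the 0 h libraries the genes called lower took more than 1 course, as the plot of antennal genes by hour shows. The mean of *Obp83a* was 177.8, 1427 and 225.5 normalized counts at 0, 6 and 12 h, that of *lush* 81.8, 271.5 and 62.5 and that of *a10* 124.3, 983.1 and 173.1, so the 6 h group stood above both others. *Jhedup* had means of 70.2, 639.1 and 305.2, and *Orco* 129.8, 348.6 and 323.3. A group with a different course held *Ir75a* and its neighbour *Ir75b*, receptors of the *Ir* family that respond to short acids. *Ir75a* had means of 431.4, 437.8 and 101.5, so its 12 h level was the one that stood apart, and the call of *Ir75b* was lost without the second 12 h library (adjusted p = 0.0773) or the second 6 h library (0.0513). Whether the number of antennae on the sieved heads differed between pools was not tested.

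**Figure D3:**
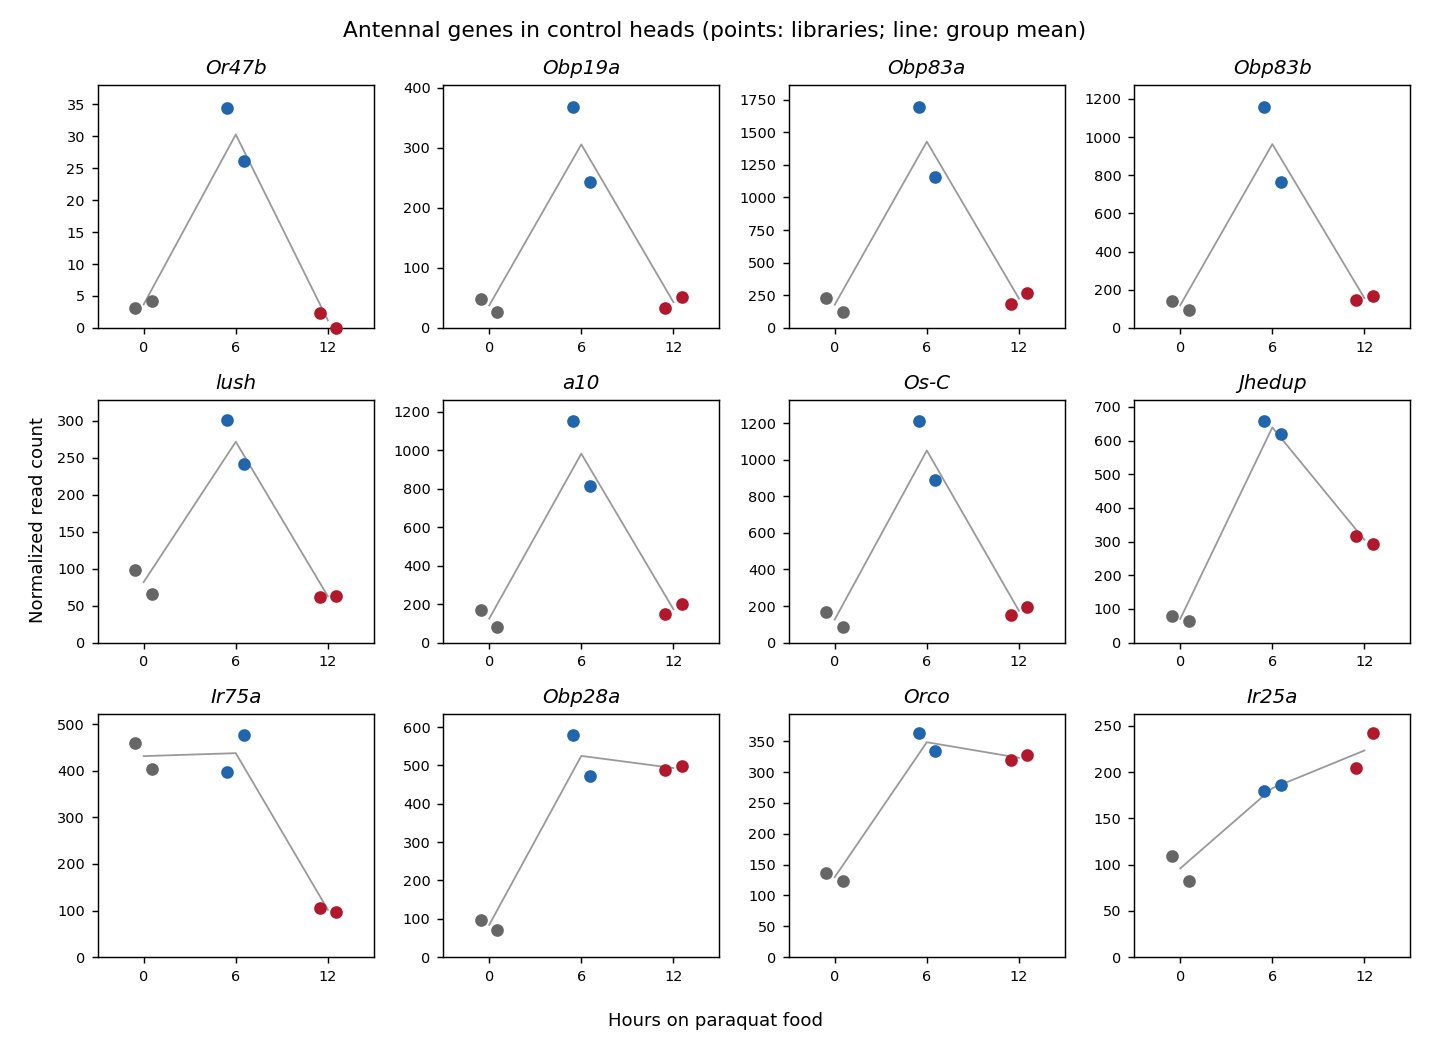
Normalized read counts of 12 antennal genes in control heads by hours on paraquat food (0, 6 and 12). Points are libraries (2 a group), the line joins the group means, and each y axis starts at 0. *Or47b*, *Obp19a*, *Obp83a*, *Obp83b*, *lush*, *a10* and *Os-C* are highest at 6 h, *Ir75a* is lowest at 12 h, and *Orco*, *Obp28a* and *Ir25a* were not called between 12 h and 6 h.

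The other groups among the decreases were noticed in the data, and they are given as descriptions. Of 5 axonemal dynein heavy chain genes tested, which serve the moving cilia of hearing neurons and sperm, 3 were lower, beside 1.94% over all tested genes. *Dhc93AB* had 625.7 and 594.9 at 12 h against 1668 and 1088 at 6 h (2.21-fold lower), *Dhc36C* was 1.61-fold lower and *Dnah3* 1.76-fold lower, and the call of *Dnah3* was lost without the first 12 h library (adjusted p = 0.170) or the first 6 h library (0.155). Of 17 *CheA* and *CheB* genes, a family with members in taste organs of the legs, 7 were lower, with *CheB93a* at 7.18 and 9.31 at 12 h against 70.3 and 63.3 at 6 h, a call lost without the first 12 h library (adjusted p = 0.0834) or the first 6 h library (0.0719). Of the muscle genes, *Act79B* had 2649 and 2455 at 12 h against 9844 and 4457 at 6 h and *Scp1* had 1670 and 1565 against 6109 and 2850, and their calls were lost without the first 6 h library (adjusted p = 0.142 and 0.277) and without either 12 h library. The first 6 h library was well above its duplicate for both genes. The 5 muscle markers summed to 69854 and 74393 at 12 h against 107940 and 85482 at 6 h, and none of them was called by limma, edgeR or DESeq2, although 4 were lower with an adjusted p of at most 0.05 at less than 1.5-fold. Without the second 6 h library 1 of the 5 was called lower. The part of muscle or leg tissue among the sieved heads in these decreases was not tested.

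Detoxification genes moved both ways. UDP-glycosyltransferases, which attach sugars to foreign and internal compounds, had 7 lower and 3 higher of 25 tested (median log2 fold change -0.09). The shares over all tested genes were 1.94% lower and 1.49% higher. A run of 4 neighbouring genes on chromosome arm 3R was lower throughout. In it *Ugt35B1* had 454.6 and 366.7 at 12 h against 1550 and 1550 at 6 h (3.79-fold lower, log2 -1.92 ± 0.10, adjusted p = 5.02e-07), *Ugt35E2* had 28.7 and 23.3 against 153.8 and 186.1, *Ugt35A1* was 1.55-fold lower, and *Ugt35E1* had 1 and 2 reads against 19 and 14 (ratio 0.0837, 95% counting interval 0.0164 to 0.267). Without the second 12 h library *Ugt35A1* changed by less than 1.5-fold and was not called. *Ugt302E1* had 7.18 and 2.33 against 42.4 and 81.9. In the other direction *Ugt37D1* had 4751 and 3844 against 2646 and 2546, a call that without the first 12 h library fell short of 1.5-fold, and *Ugt37E1* beside it had 169.9 and 110.6 against 34.5 and 48.4, a call lost without the first 12 h library (adjusted p = 0.104) or the first 6 h library (0.0780). Reads of 30 bases can be shared between close copies in this family and in the *Gst* family.

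Of 33 glutathione S-transferases 2 were higher and 3 lower, with 1 higher without the first library of either hour and 1 lower without the second 12 h library. *GstD2* had 3741 and 3174 normalized counts at 12 h against 1605 and 1588 at 6 h (2.16-fold higher, log2 1.11 ± 0.17, adjusted p = 0.00192), on top of means of 43.6, 1596 and 3457 at 0, 6 and 12 h. *GstD5* was 1.84-fold higher, but lost its call without 3 of the 4 libraries in turn (highest adjusted p 0.286). *GstE1* had 884.1 and 724.1 at 12 h against 1249 and 1268 at 6 h, still above its 0 h mean of 444.2, and lost its call without the second 12 h library (adjusted p = 0.0736). *GstZ2*, of the class that also breaks down tyrosine, was 1.70-fold lower, with 1152 and 1168 against 1964 and 1986. Of 77 cytochrome P450 genes 7 were higher and 4 lower (median 0.04), led by *Cyp28a5* with 6476 and 5473 against 2457 and 2882 and *Cyp4d21* with 1608 and 1742 against 637.9 and 617.9. Beside these counts and those of the *Gst* genes, 1.49% of all tested genes were called higher and 1.94% lower. The count of higher *Cyp* genes was 2 without the first 6 h library and 4 without the first 12 h library, and that of *Ugt* genes was 1 without either and 5 without the second 6 h library. The count of lower *Cyp* genes was 2 without the second library of either hour. The metallothioneins *MtnD* and *MtnE*, which bind metal ions, were 2.28-fold and 3.32-fold lower with means of 311.1 and 90.2 at 12 h against 717.2 and 310.3 at 6 h. The call of *MtnD* was lost with each library left out (adjusted p up to 0.178), and that of *MtnE* without either 12 h library or the second 6 h library (up to 0.143).

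Enzymes of hormone, fat and sugar metabolism were also among the calls. *Jhe*, juvenile hormone esterase, had 8.37 and 5.82 at 12 h against 54.4 and 48.4 at 6 h (6.54-fold lower, log2 -2.71 ± 0.25, adjusted p = 6.01e-05), with a 0 h mean of 154.8. The acyl-CoA synthetase-like genes *Acsx2*, *Acsx3* and *Acsx4*, side by side on 3R, were 8.23-fold, 3.79-fold and 3.01-fold lower, and *Acsx3* had 745.4 and 689.2 against 2813 and 2625. *Ldh*, lactate dehydrogenase, had 3623 and 2995 at 12 h against 1305 and 1328 at 6 h (log2 1.32 ± 0.13, adjusted p = 0.000108). The means of *Ldh* at 0, 6 and 12 h were 184.7, 1316 and 3309, and it was the 1 called gene of 14 for glycolysis. At any fold with a limma adjusted p of at most 0.05, 5 of these 14 were lower, and *Ldh* was the 1 higher. Their median log2 fold change was -0.105, and 4.23% of all tested genes were lower by that rule. *Desat1*, the main fatty acid desaturase, had 38563 and 39311 at 12 h against 19418 and 21761 at 6 h, and *Tps1*, which makes trehalose phosphate, had 7840 and 8197 against 4184 and 4888. Their 0 h means were 42506 and 8151, so the 6 h group was the low one. *mdy*, the diacylglycerol acyltransferase that makes storage fat, was 1.75-fold lower, and *bgm*, a synthetase for very long fatty acids, 1.78-fold lower. At any fold with a limma adjusted p of at most 0.05, 7 of 20 lipid storage genes were higher and 2 lower (median log2 fold change 0.21). By that rule 1 of 21 genes for fatty acid beta oxidation was higher and 2 were lower, with 4 of the 21 below 0 (median 0.16). Over all tested genes 5.58% were higher and 4.23% lower by it. *Lsp2*, a storage protein of the fat body, was the 1 called of 7 head fat body markers, with 13410 and 15525 at 12 h against 20542 and 29576 at 6 h, and its call was lost without the first 12 h library (adjusted p = 0.0909) or the second 6 h library (0.0583). Without the second 12 h library 2 of the 7 were called higher. The 8 fat body markers in the table summed to 62431 and 64586 at 12 h against 67009 and 85621 at 6 h.

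Nearly all genes of the mitochondrial respiratory complexes had values slightly below 0. Of 70 tested 69 had a log2 fold change below 0 (49.1% over all tested genes), with a median of -0.19 and summed levels of 350010 and 358810 at 12 h against 414130 and 391900 at 6 h. At any fold, 23 had an adjusted p of at most 0.05 and were lower and 0 were higher, against 4.23% lower over all genes, and limma had 59 lower and 0 higher at an unadjusted p below 0.05. Just 1 passed the 1.5-fold rule, *COX7AL2*, and its call was lost with each library left out (highest adjusted p 0.275). The median kept its sign in every alternative, between -0.16 and -0.23. The cytosolic ribosomal protein genes had a median of 0.05 and no call by limma, edgeR or DESeq2 among 80, with 1 at an unadjusted p below 0.05.

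Stress signalling rose by at least 1.5-fold in a few genes. *ImpL2*, a secreted protein that binds insulin-like peptides, had 7006 and 6340 at 12 h against 3742 and 3684 at 6 h (1.79-fold higher, log2 0.84 ± 0.11, adjusted p = 0.000716). *Thor*, the translation repressor 4E-BP, was 1.56-fold higher, and these were the 2 called of 21 genes for insulin signalling. For this and the other lists here, the shares over all tested genes were 1.49% higher and 1.94% lower. *trbl*, a pseudokinase that acts on Akt, had 1437 and 1289 against 847.4 and 683.6, and *Sil1*, an exchange factor of the chaperone BiP, 1175 and 982.6 against 661.7 and 756.8. With *Thor*, these were the 3 called higher of 23 genes for the unfolded protein and integrated stress response. At any fold with a limma adjusted p of at most 0.05, 7 of the 21 insulin signalling genes were higher and 0 lower. By that rule 6 of the 23 were higher and 0 lower, against 5.58% of all tested genes higher. *AsnRS* was the 1 called of 17 aminoacyl-tRNA synthetases at 1.56-fold, while 9 of the 17 were higher at any fold with an adjusted p of at most 0.05 and 16 had a log2 fold change above 0 (median 0.28), against 5.58% of all tested genes higher by that rule. Without the second library of either hour 2 of the 17 were called. *Thor* without the second 6 h library and *AsnRS* without the first 12 h library were higher by less than 1.5-fold and not called, and *Sil1* lost its call without the first 12 h library (adjusted p = 0.0651) or the first 6 h library (0.0548). Of 16 genes in the *Hsp70* and *Hsp90* list 1 was lower, *Hsc70-1* by 1.70-fold, and of 10 small heat shock proteins 2 were lower, *CG13133* by 2.84-fold and *CG7409* by 1.70-fold. *Hsc70-1* and *CG7409* lost their calls without 3 of the 4 libraries in turn (adjusted p up to 0.0515 and 0.0818). Without the second 6 h library 5 of the 16 *Hsp70* and *Hsp90* genes and 3 of the 10 small heat shock proteins were lower, and the median of the 16, -0.29 with all libraries, was -0.58 without it and 0.11 without the first 6 h library, where none was called.

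Immune, eye and brain genes contributed a few calls, beside shares of 1.49% higher and 1.94% lower over all tested genes. The bomanins *BomT2* and *BomBc2*, short peptides of the Toll response, had 1890 and 1882 and 4599 and 4745 at 12 h against 836.8 and 947.9 and 2559 and 2907 at 6 h. They were the 2 called of 25 antimicrobial peptide genes, and *BomT2* lost its call without 3 and *BomBc2* without each of the 4 libraries in turn (adjusted p up to 0.0949 and 0.152). Among 30 genes of phototransduction 3 were higher, *Rh2* of the ocelli at 1.67-fold, *inaF-B* of the TRP channel at 1.70-fold and *Rh5* of blue-sensitive cells at 1.59-fold, and *inaC*, the eye's protein kinase C, was 1.63-fold lower with 11737 and 11507 against 17861 and 20154. At any fold with a limma adjusted p of at most 0.05, 10 of these 30 were higher and 6 lower. By that rule 5.58% of all tested genes were higher and 4.23% lower. *Rh5* had means of 986.1, 5876 and 9342 at 0, 6 and 12 h. *ple*, tyrosine hydroxylase of dopamine synthesis, was 1.62-fold lower with 1442 and 1286 against 2187 and 2240, after a 0 h mean of 3442. The neuropeptide gene *CNMa* had 159.1 and 144.4 against 57.0 and 57.1, and the astrocyte genes *alrm* and *Gat* were higher by 0.99 and 0.59 on the log2 scale. *Rh5*, *alrm* and *Gat* lost their calls without 2 or 3 of the 4 libraries in turn, with adjusted p up to 0.0945, 0.117 and 0.0532 in that order.

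The rule for naming also picked genes outside these groups. Over all tested genes 1.49% were called higher and 1.94% lower, the shares beside which the list counts here stand. *CG10357* had 17.9 and 17.5 normalized counts at 12 h against 245.3 and 201.0 at 6 h (11.9-fold lower, log2 -3.58, adjusted p = 0.000277), and its 0 h mean was 13.7. Of 36 *Cpr* genes, which encode cuticular proteins, 1 was higher and 3 were lower, with 0 higher without the first 12 h library, 2 higher and 6 lower without the second 6 h library, and 1 lower without the first 6 h or the second 12 h library. *Cpr64Ac* had 56.2 and 37.3 against 17.2 and 13.6, a call lost without the first 12 h library (adjusted p = 0.140) or the second 6 h library (0.0801), and *Cpr72Ec* had 916.4 and 846.3 against 1400 and 1428, with a 0 h mean of 2573. Of 11 activity-regulated neuronal genes, 4 were higher and 0 lower at any fold with a limma adjusted p of at most 0.05. The share higher over all tested genes was 5.58% by that rule. None of the 11 had a log2 fold change below 0 (median 0.23). The 1 called higher was the nuclear receptor gene *Hr38*, with 1883 and 1905 against 1331 and 785.4. Its call was lost without either 12 h library or the second 6 h library (adjusted p up to 0.130).

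Many lists had no call at all. None of 18 antioxidant enzymes was called by limma, edgeR or DESeq2, with 6 at an unadjusted p below 0.05 and a range of log2 fold changes from -0.17 to 0.51. *Cat* had 9726 and 9412 at 12 h against 8023 and 8727 at 6 h, and *Sod1* had 7214 and 7406 against 6884 and 7432. The 7 CCT chaperonin, 19 autophagy, 29 DNA repair, 15 JNK pathway, 14 cell death, 10 H3K9 methylation, 17 synaptic vesicle, 5 neuron marker and 5 hemocyte marker genes likewise had no call by these tools, with 3, 3, 5, 6, 4, 0, 2, 0 and 1 at an unadjusted p below 0.05. All 6 of the JNK pathway were higher. At any fold with a limma adjusted p of at most 0.05, 3 antioxidant, 3 JNK pathway, 2 DNA repair and 1 autophagy genes were higher. None in these lists was lower by that rule, and over all tested genes 5.58% were higher and 4.23% lower. Of 36 proteasome genes 1 was lower by limma, *Prosbeta2R2*, a gene of low level in the head, at 9.57 and 11.6 normalized counts against 31.8 and 28.5. Of the 36, edgeR called 1 and DESeq2 called 0.

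**Figure D4:**
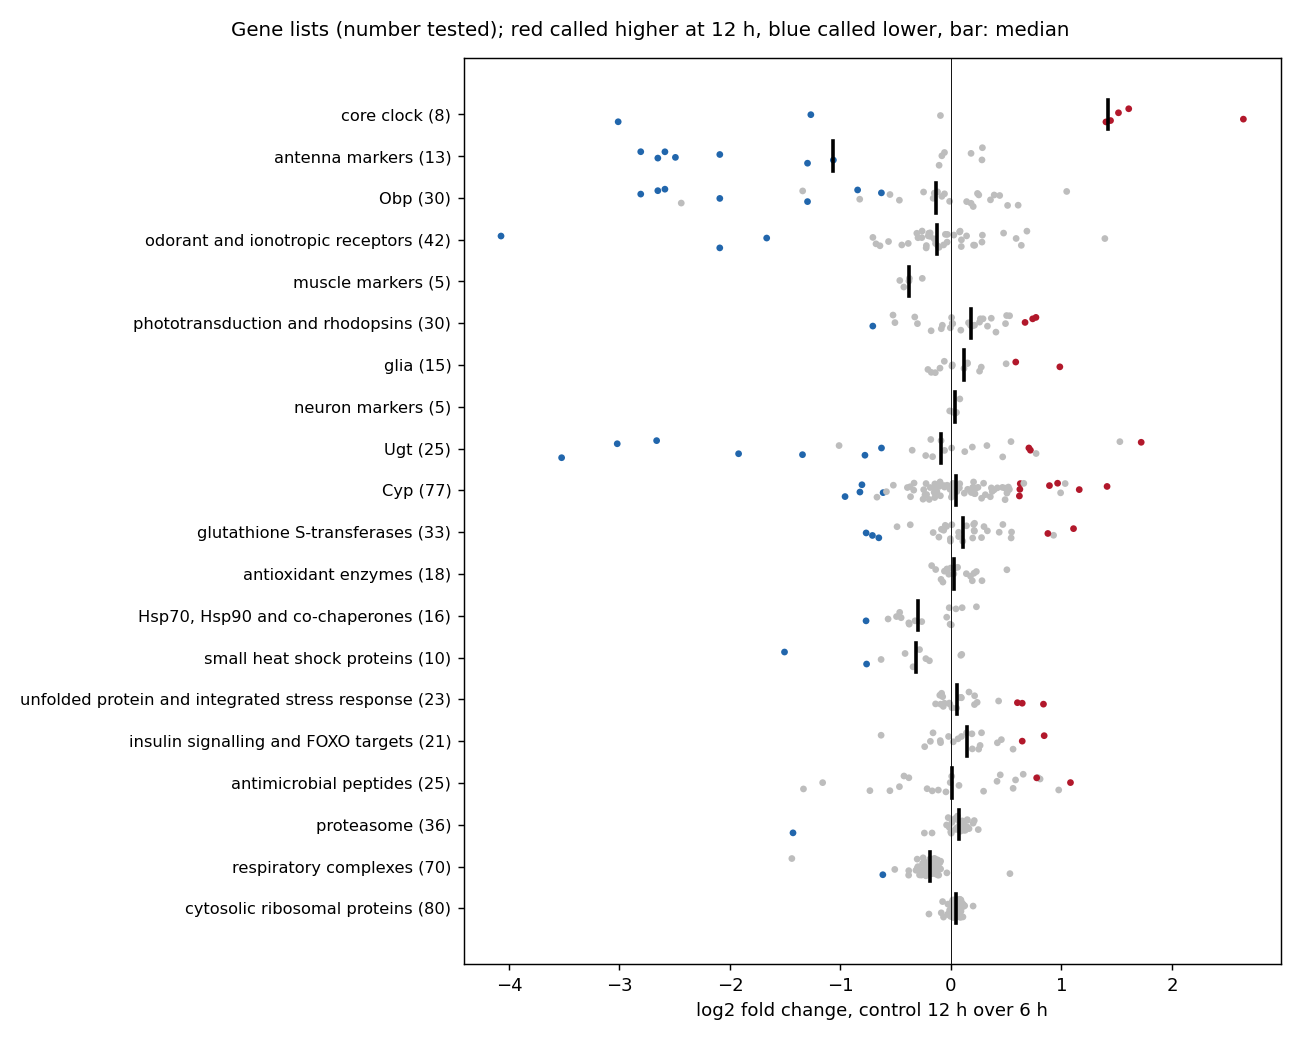
Log2 fold change, control 12 h over 6 h, of each tested member of 20 gene lists. Each point is a gene, red where called higher at 12 h, blue where called lower and grey where not called, and the black bar is the median of the list. The core clock has a median of 1.42 and the antennal markers one of -1.06, while respiratory genes sit close together just below 0 and ribosomal proteins around 0.

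The same step in *G9a* mutants, which shares no library with the controls, gave 961 calls of 10530 (9.13%), with 467 higher (4.43%) and 494 lower (4.69%). Genes called the same way in both genotypes made up 56.8% of the 361 control calls and 21.3% of the mutant calls, and 7 were called in opposite directions. The difference between the genotypes, tested as an interaction, was called for 552 genes (5.24%), with a step higher in mutants for 239 (2.27%) and lower for 313 (2.97%). Among the 552 were 91 of the 361 (25.2%), but the interaction contains the control step by which the 361 were chosen. Their share therefore cannot be set against that of all genes. Without the first mutant 6 h library the count with a lower step in mutants was 190. Of the core clock, 5 genes were called higher and 2 lower in mutants as well. *Clk* fell by 2.76 on the log2 scale in mutants and by 3.01 in controls (difference 0.25 ± 0.15 SE, adjusted p = 0.381), and *per* rose by 1.27 in mutants and 1.40 in controls (difference -0.13 ± 0.08, adjusted p = 0.398), values that do not show that the genotypes moved alike. The rises of *tim* and *vri* were smaller in mutants, by 0.62 ± 0.09 and 0.68 ± 0.08 on the log2 scale (adjusted p = 0.00188 and 0.000506), as *tim* had 61649 and 60309 normalized counts at 12 h against 15724 and 14142 at 6 h in mutants.

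Some steps were larger in mutants and others smaller or opposite. *Ldh* rose by 2.62 on the log2 scale in mutants and by 1.32 in controls, *trbl* by 2.02 and 0.84 and *ImpL2* by 1.81 and 0.84, and each of these differences was called (adjusted p = 0.00147, 0.00152 and 0.00276). *Jhedup* fell by 2.88 in mutants and by 1.06 in controls (adjusted p of the difference 0.000264), and *Orco*, not called in controls, had 111.4 and 134.8 at 12 h against 404.8 and 298.4 at 6 h in mutants (adjusted p of the difference 0.00173). *Cyp4d21* went opposite ways, with 428.4 and 324.9 at 12 h against 719.1 and 481.2 at 6 h in mutants, and *GstE1* too, with 10924 and 14174 against 8264 and 7152 (adjusted p of the difference 0.000747 and 0.000979). *Jhe* fell less in mutants, by 0.99 against 2.71 in controls (adjusted p of the difference 0.0105). Among the largest differences were genes with no call in controls. *bnl*, the fly FGF that guides tracheal branching, had 4971 and 6588 at 12 h against 569.5 and 539.0 at 6 h in mutants, and 433.1 and 457.5 against 449.5 and 403.2 in controls (adjusted p of the difference 1.2e-06). *Hsp70Ab*, one of several near-identical copies of the heat-inducible chaperone, had 5711 and 9885 against 1260 and 981.7 in mutants and 1312 and 1082 against 2297 and 1044 in controls, and its reads may be split between the copies.

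**Figure D5:**
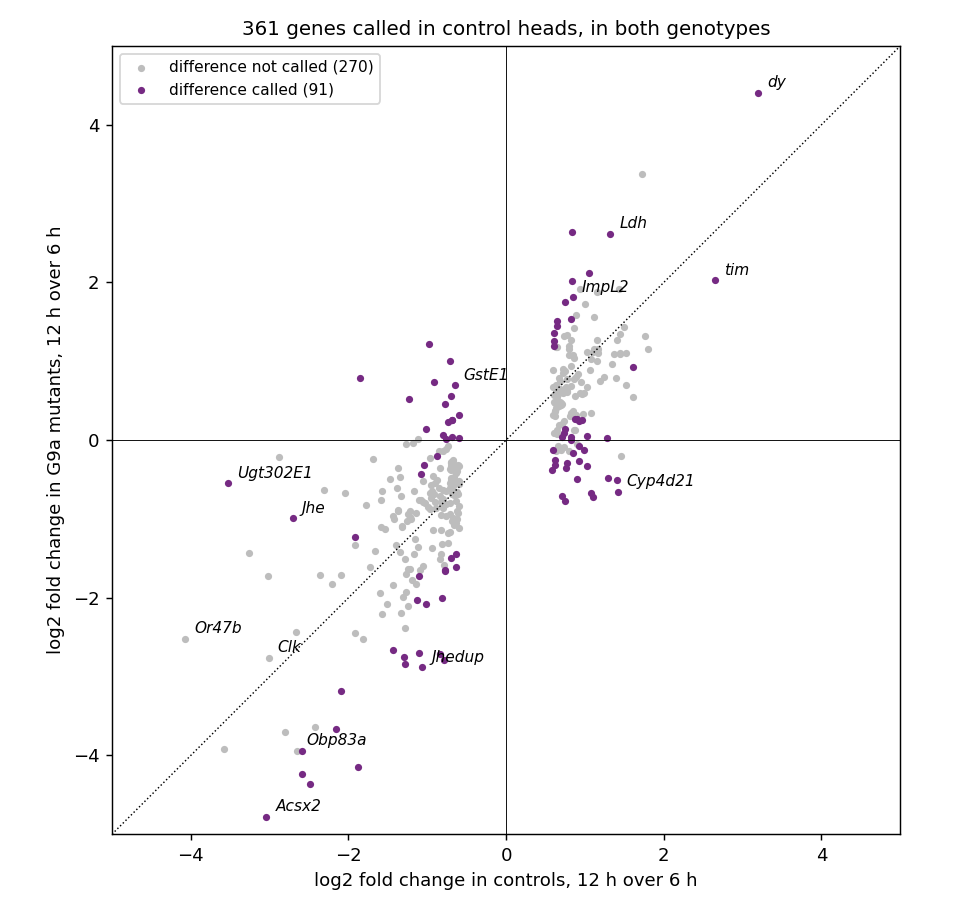
Log2 fold change, 12 h over 6 h, of the 361 genes called in control heads, with *G9a* mutants on the y axis and controls on the x axis. Each point is a gene, purple where the difference between the genotypes was called (91) and grey where it was not, and the dotted line marks equal change. *Clk* lies near the line, *Ldh* and *dy* lie above it, and *tim*, *Jhedup* and *Cyp4d21* lie below it.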

How the data were processed

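Male fly heads were sequenced in 12 libraries, 2 for each of 6 groups. Single-end reads of 30 bases were aligned by the authors with BWA to BDGP 5 and counted per gene with HTSeq, with versions not given in the sources used here. The deposited signal values are these counts divided by a DESeq size factor per library, and 100% of 188184 values came out as whole reads within 0.01 reads. Libraries held 19275805 to 41393992 reads, so genes of a few reads are imprecise, and counting intervals cover counting error only. Of 15682 gene IDs, 15002 matched a symbol in an Ensembl 115 annotation of BDGP 6, which was used for names, neighbours and exon overlaps and gave no coordinates. The authors' 4 tables of DESeq comparisons with 0 h were not used.

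Values were taken as log2(count + 1), which understates the change of low genes, for genes with a mean of at least 10 over the 12 libraries. limma 3.58.1 in R 4.3.3 fitted 6 group means to all libraries with a trended prior (6 residual degrees of freedom), and p-values were adjusted by Benjamini-Hochberg over 10530 genes. An exact permutation test of 2 against 2 libraries cannot go below p = 0.333. Scripts were tested on simulated data. Alternatives covered the pseudocount, the minimum count, scaling, the libraries fitted, a replicate block, edgeR 4.0.16 and DESeq2 1.42.0 on the recovered reads, thinning and each library left out.

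Gene names follow a rule: the 12 largest called changes each way, every core clock gene, up to 3 called members of each list by smallest p, and the 5 largest genotype differences each way. Other names were chosen after their values were seen. The comparison and the lists were chosen with earlier results of these data known.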

Additional observations from a re-analysis of the deposited data

Results flagged for a closer look

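For 34 named genes the 12 h against 6 h step differed between *G9a* mutants and controls by the interaction test, and the values are mutant minus control on the log2 scale. Over all tested genes the difference was called for 552 (5.24%). The naming rule took the 5 largest differences each way by this same test. Many of the others were named for a change in controls, which the test contains, so the count of 34 is no result. Among genes with no call in controls the step was higher in mutants by 3.83 for *CG9875*, 3.30 for *bnl*, 3.13 for *Hsp70Ab*, 3.09 for *Hsp70Aa* and 3.03 for *Hsp70Bb*, the last 3 being near-identical copies. The difference was -2.78 for *Drsl5*, -2.65 for *Diedel*, -2.58 for *CG14495*, -2.57 for *CG32603* and -2.40 for *Or59c*.

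Among genes that fell in controls the difference was 2.97 for *Ugt302E1*, 1.72 for *Jhe* and 1.35 for *GstE1*, and it was -0.88 for *Ugt49C1*, -0.89 for *Lsp2*, -1.10 for *lush*, -1.36 for *Obp83b* and -1.74 for *Acsx2*. Among genes that rose in controls it was 1.30 for *Ldh*, 1.21 for *dy*, 1.19 for *trbl*, 0.97 for *ImpL2*, 0.81 for *AsnRS* and 0.59 for *Sil1*. For the other genes that rose in controls it was -0.62 for *tim*, -0.65 for *Rh2*, -0.68 for *Desat1* and *vri*, -0.82 for *Tps1*, -0.97 for *Gat*, -1.06 for *BomBc2*, -1.11 for *alrm*, -1.75 for *BomT2* and -2.07 for *Cyp4d21*.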

How the results depend on the processing

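All 361 calls kept their direction in each alternative that gave a value. The separation of their libraries forces this where a library was left out. The count of calls was 319 to 371 under the other pseudocounts, minimum counts, scalings, sets of libraries, tools and thinning. With 1 of the 4 libraries left out it ranged from 232 to 354, with 112 to 159 higher and 117 to 195 lower. The pairs by 7SL reads and the crossed pairing were chosen after the data were seen. The pair of libraries rich in 7SL reads (6 h 1, 12 h 2) gave 224 calls, 92 higher and 132 lower, and the poor pair (6 h 2, 12 h 1) gave 189, with 84 lower. For the genotype difference the rich pair gave 203 lower, and the poor pair gave 288 calls, 148 higher and 140 lower. Leaving out 1 library moved its count of genes with a lower step in mutants to between 190 (first mutant 6 h library) and 338. The causes were not tested. The replicate block gave 367 calls, of which 353 were among the 361. The deviations of same-numbered libraries had r = -0.57 (rho = -0.0354) across all tested genes and r = -0.00418 (rho = -0.0192) over protein-coding genes, and crossed pairing gave 349 calls. edgeR gave 365 calls and DESeq2 340. Depth limits genes of a few reads such as *Or47b*.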
